A study of Mus musculus with 20 samples.

Results

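The mitochondrial carrier family, encoded by the Slc25 genes, was described across 20 bulk RNA-seq libraries of mouse left ventricle. Members were the genes whose symbol is Slc25a followed by a number and whose deposited value reached 10 in at least 5 of the 10 libraries of a time, with Slc25a11, Slc25a12, Slc25a20, Slc25a37 and Slc25a44 left out by name. At 24 weeks 35 of the 45 listed Slc25a genes were members, and at 2 weeks 34 of 44 were. Those 34 were members at both times, and Slc25a31 was a member at 24 weeks alone. Of 19985 genes listed at 24 weeks 14676 passed the same minimum and were tested, and of 19872 listed at 2 weeks 14584 were.

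The dnOGAh-Tg mice overexpressed a dominant-negative OGA in the heart, switched on with doxycycline in the food for 2 or 24 weeks, and each time had its own Control mice. There were 5 dnOGAh-Tg and 5 Control libraries at each time. OGA is the enzyme that removes the sugar O-GlcNAc from intracellular proteins. The sources used here do not give the Control genotype, whether Control mice received doxycycline, the promoter that drives the transgene, or the age, sex and strain of the mice. The labels number the libraries of a group without saying whether each came from its own mouse, and p-values therefore cover the spread among libraries, which may be technical. Each title also carries a code, followed by a further number that differs among the libraries of a code. What that further number stands for is not said. At 2 weeks dnOGAh-Tg libraries 1 and 2 and Control libraries 1 and 2 carry F11, dnOGAh-Tg library 3 carries F13, and dnOGAh-Tg libraries 4 and 5 and Control libraries 3 to 5 carry F14. At 24 weeks each of 5 codes holds 1 library of either group, and those 2 libraries carry the same library number.

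Carriers of this family sit mostly in the inner mitochondrial membrane, which is closed to charged metabolites. Each moves a small set of solutes, such as ADP and ATP, phosphate, di- and tricarboxylates, amino acids, nucleotides, coenzyme A or glutathione, usually by exchanging one for another. In heart muscle the ADP/ATP carrier and the phosphate carrier serve ATP synthase, and the aspartate/glutamate carriers, with the oxoglutarate carrier, form the malate-aspartate shuttle that brings reducing equivalents into the matrix.

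Recovered reads per library ranged from 22804712 to 50996272. Oga, which checks the labels, had 32250.0, 21661, 56078, 52593 and 28853 normalized counts in dnOGAh-Tg libraries 1 to 5 at 24 weeks, against 3068, 2933, 3721, 2521 and 3454 in Control. At 2 weeks it had 8608, 6406, 56985, 61206 and 42127 in dnOGAh-Tg, against 3983, 2565, 4269, 3852 and 3074 in Control. Every dnOGAh-Tg library thus lay above every Control library of its time, but the F11 dnOGAh-Tg libraries at 2 weeks had only 2.43 and 1.81 times the Control mean, against 16.1 times in the F13 library and 17.2 and 11.9 times in the F14 libraries. Markers of heart muscle were abundant in all 20 libraries. At 24 weeks the 7 cardiomyocyte markers summed to 1141860 to 1560120 normalized counts in dnOGAh-Tg and 1561860 to 2038010 in Control, and 3 of the 7 (Ryr2, Myh6 and Tnni3) were lower by the test below. Markers that were lower at 24 weeks also included 6 of 7 endothelial, 4 of 4 erythroid and 3 of 7 mural genes, while 1 mural, 3 of 7 fibroblast and 2 of 3 atrial markers were higher and none of the 7 macrophage, 5 adipocyte and 2 lymphocyte markers was called. The atrial marker sum was 807 to 7934 in dnOGAh-Tg, highest in library 4, and 160.2 to 264 in Control. No marker was called at 2 weeks over all libraries, where Control library 2 alone had an atrial marker sum of 10639.5, and without the F11 libraries 2 cardiomyocyte, 1 endothelial and 1 mural markers were lower and 4 fibroblast and 3 macrophage markers higher. In bulk tissue, fewer cells of a type and less RNA per cell cannot be told apart, and the part of these shifts in the carrier values was not tested.

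Normalized counts are read counts divided by 1 size factor per library, made by the authors for each time separately, so levels are compared within a time only. Per length of merged exon, the members' summed level in the left ventricle was mostly Slc25a4. Merged exons came to 5550 bases for Slc25a3, 2353 for Slc25a4 and 1646 for Slc25a5. They include rarely used exons, and a gene whose merged exons exceed its main transcript is given too low a share. Shares and order therefore depend on these lengths, and no other length was tried. The 5 carriers left out by name are in neither the sum nor the order below. Among them Slc25a11 had a Control mean of 17752 normalized counts at 24 weeks, not divided by length. Divided by the merged exon length, Slc25a4, the ADP/ATP carrier that predominates in heart, made up 73.9% ± 1.63 in dnOGAh-Tg and 72.1% ± 1.64 in Control of the members' summed level at 24 weeks (SD, n = 5 each). The phosphate carrier Slc25a3 made up 9.82% ± 0.732 in dnOGAh-Tg and 11.1% ± 0.507 in Control, and Slc25a5, the second ADP/ATP carrier, 6.12% ± 0.721 in dnOGAh-Tg and 6.05% ± 0.832 in Control. These 3 kept their order at 2 weeks, where Slc25a4 held 75.9% ± 2.72 in dnOGAh-Tg and 72.1% ± 3.04 in Control. Next among the members in Control at 24 weeks stood Slc25a34, Slc25a13 and Slc25a39, whose Control shares overlapped. In dnOGAh-Tg the share of Slc25a39 lay above those of Slc25a34 and Slc25a13 in every library. The shares were 1.15% ± 0.162 in dnOGAh-Tg and 2.09% ± 0.468 in Control for Slc25a34, 1.17% ± 0.214 in dnOGAh-Tg and 1.77% ± 0.291 in Control for Slc25a13 and 1.64% ± 0.0933 in dnOGAh-Tg and 1.64% ± 0.150 in Control for Slc25a39. Those of Slc25a34 and of Slc25a13 did not overlap between dnOGAh-Tg and Control. The remaining members were each under 1% of the sum. Over all members the summed level at 24 weeks was 58268.5 to 83192 normalized counts per kilobase in dnOGAh-Tg and 73415 to 98663 in Control, with overlap. Without Slc25a4 it was 16401 to 19642 in dnOGAh-Tg and 20174 to 26305 in Control. For that smaller sum the groups did not overlap, as they did not for the cardiomyocyte marker sum. At 2 weeks the sum without Slc25a4 was 19387 to 24318 in dnOGAh-Tg and 20299.8 to 24264 in Control, with overlap.

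**Figure D1:**
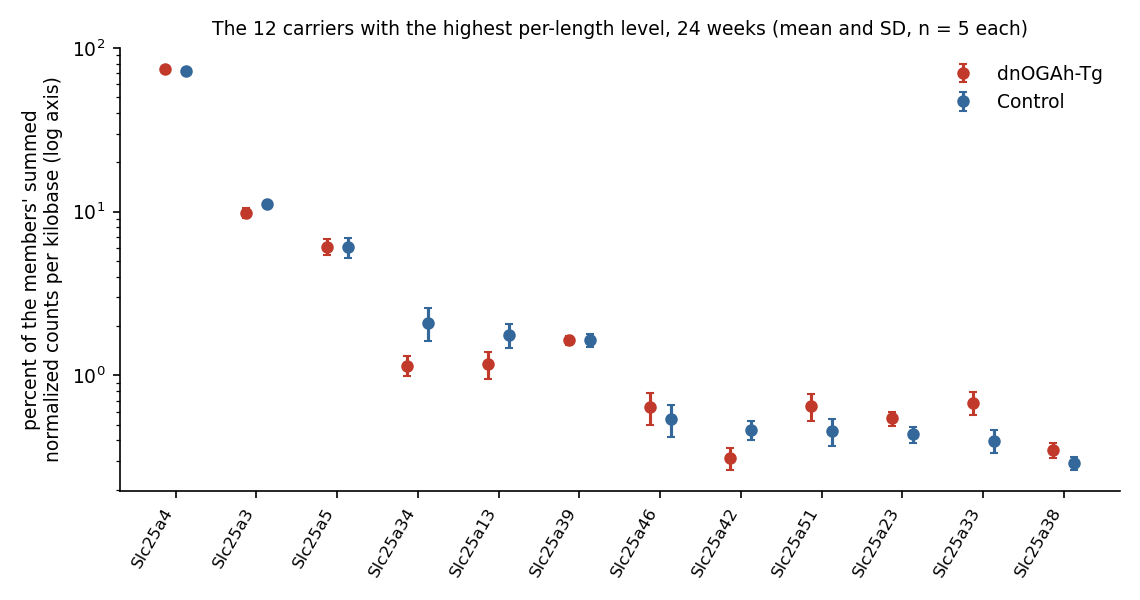
Share of the members' summed level, in normalized counts per kilobase of merged exon, for the 12 members with the highest Control level at 24 weeks (log axis). Points are means over 5 libraries and bars are SD; Slc25a4 alone holds over 70% in both groups, while Slc25a34, Slc25a13 and Slc25a42 take smaller shares in dnOGAh-Tg than in Control.

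After 24 weeks of induction, 8 of the 35 members were lower in dnOGAh-Tg and 2 were higher. The largest falls were in Slc25a34, a carrier with no settled substrate in mammals, in the aspartate/glutamate carrier Slc25a13, in the glutamate carrier Slc25a22 and in the coenzyme A carrier Slc25a42, each of which fell to between 43.6% and 53.3% of its Control mean. The phosphate carrier, the dicarboxylate carrier Slc25a10, the pyrimidine nucleotide carrier Slc25a36 and Slc25a16 fell by less. The 2 that rose were the pyrimidine nucleotide carrier Slc25a33 and the citrate carrier Slc25a1.

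A member was called where limma's adjusted p over all tested genes was under 0.05. By this rule 22.5% of all 14676 tested genes were called at 24 weeks, 11.1% lower and 11.3% higher, and 28.6% of the members were, 22.9% lower and 5.71% higher. The share called either way was thus near that of all genes, and no test was made of the list as a whole. The median log2 change of the members was -0.07, against -0.0046 over all tested genes. All 5 dnOGAh-Tg libraries lay beyond the Control range for 6 members that were lower (17.1%, against 8.19% of all tested genes) and 3 that were higher (8.57%, against 8.49%).

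**Figure D2:**
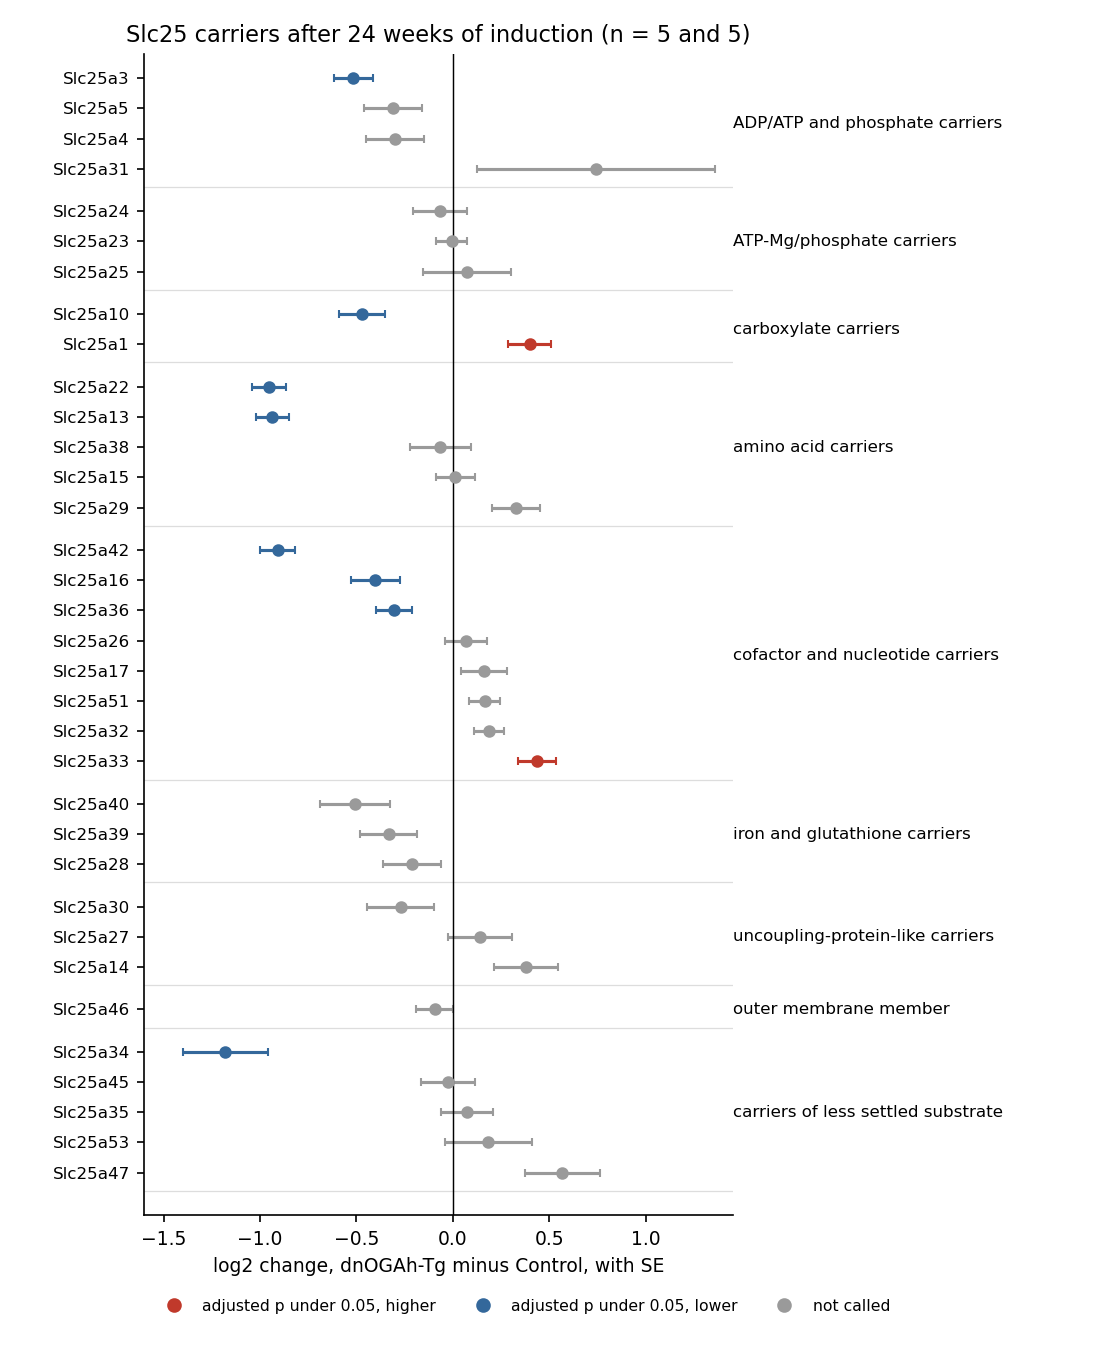
Log2 change (dnOGAh-Tg minus Control, horizontal axis) of 34 of the 35 members at 24 weeks with its SE, grouped by what the carriers are known to move; n = 5 libraries a group. Blue points (8) were lower and red points (2) higher by limma, grey points were not called; the points farthest to the left are Slc25a34, Slc25a22, Slc25a13 and Slc25a42.

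Of the 5 amino acid carriers tested, 2 fell (40%, against 11.1% of all tested genes) and the others were not called. Slc25a13 (ENSMUSG00000015112, chromosome 6, 6041218 to 6217173 on GRCm39), also called citrin, exchanges aspartate for glutamate in the malate-aspartate shuttle. Its values were 2987, 2621, 3104, 2721 and 3452 normalized counts in dnOGAh-Tg libraries 1 to 5, against 6069, 5609, 5535, 5684 and 5490.0 in Control. Each dnOGAh-Tg library was well below the lowest Control library, and both groups were tight. The log2 change was -0.94 (SE 0.09, limma adjusted p = 1.50e-05). Slc25a22 (ENSMUSG00000019082, chromosome 7, 141009657 to 141017805) carries glutamate with a proton into the matrix. It had 696, 759.8, 619, 664 and 618 normalized counts in dnOGAh-Tg, against 1283, 1424, 1206, 1383 and 1204 in Control, again with a wide gap between the groups. Its log2 change was -0.95 (SE 0.09, limma adjusted p = 1.68e-05). The glycine carrier Slc25a38 stood at -0.07 (SE 0.16, adjusted p = 0.802) on the log2 scale by limma, and the ornithine carrier Slc25a15 at 0.01 (SE 0.10, adjusted p = 0.945). For the basic amino acid carrier Slc25a29 the value was 0.33 (SE 0.12, limma adjusted p = 0.0753).

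Among the 9 cofactor and nucleotide carriers, 3 fell (33.3%, against 11.1% of all tested genes) and 1 rose (11.1%, against 11.3%). Slc25a42 (ENSMUSG00000002346, chromosome 8, 70636990 to 70664955) brings coenzyme A into the matrix in exchange for adenine nucleotides. Its values were 1208, 1313, 1440.2, 1144 and 1197 in dnOGAh-Tg, against 2243, 2605, 2349, 2110.3 and 2527 in Control. The highest dnOGAh-Tg library lay far below the lowest Control library, and the log2 change was -0.91 (SE 0.09, limma adjusted p = 2.26e-05). Slc25a16, which has been linked to coenzyme A transport, had 694, 517, 862, 803 and 713 in dnOGAh-Tg, against 1006, 841, 1023, 879 and 938 in Control. Here dnOGAh-Tg library 3 lay above Control library 2, so the groups overlapped, and the log2 change was -0.40 (SE 0.13, limma adjusted p = 0.0402).

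Slc25a33 and Slc25a36 both move pyrimidine nucleotides, and they were called in opposite directions. Slc25a33 had 1039, 841, 801, 874 and 782 normalized counts in dnOGAh-Tg, against 638, 592, 615, 632 and 718 in Control, and its log2 change was 0.44 (SE 0.10, limma adjusted p = 0.00612). Slc25a36 had 1299, 1325, 1300.2, 1233 and 1036 in dnOGAh-Tg, against 1539, 1757, 1461, 1469.9 and 1418 in Control, and its log2 change was -0.31 (SE 0.09, limma adjusted p = 0.0325). Neither gene's groups overlapped, although the gap was narrow for both. The remaining cofactor carriers were not called by limma. The NAD carrier Slc25a51 stood at a log2 change of 0.16 (SE 0.08, adjusted p = 0.173), the folate and FAD carrier Slc25a32 at 0.19 (SE 0.08, adjusted p = 0.098) and the peroxisomal carrier Slc25a17 at 0.16 (SE 0.12, adjusted p = 0.366). The S-adenosylmethionine carrier Slc25a26 was at 0.07 (SE 0.11, adjusted p = 0.698). All 5 dnOGAh-Tg libraries of Slc25a32 nevertheless lay above all 5 Control libraries.

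The 2 carboxylate carriers were both called, against 22.5% of all tested genes, and went in opposite directions. The dicarboxylate carrier Slc25a10, which exchanges malate or succinate for phosphate, had 403, 372, 293, 306 and 338 normalized counts in dnOGAh-Tg, against 455, 572, 453, 420.1 and 474 in Control. Its groups did not overlap, and the log2 change was -0.47 (SE 0.12, limma adjusted p = 0.0117). The citrate carrier Slc25a1, which exports citrate to the cytosol, had 268, 339, 276, 266 and 308 in dnOGAh-Tg, against 211, 240.1, 197, 206 and 251 in Control. Every dnOGAh-Tg library was above every Control library, and the log2 change was 0.40 (SE 0.11, limma adjusted p = 0.0238).

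Of the carriers that feed ATP synthase, 1 of 4 was called (25%, near the 22.5% of all tested genes). Slc25a3 (ENSMUSG00000061904, chromosome 10, 90952436 to 90959921), which imports phosphate, had 36869, 41374, 37057, 33450.5 and 36051 normalized counts in dnOGAh-Tg, against 46337, 58456, 48046, 56016 and 55929.7 in Control. No dnOGAh-Tg library reached the lowest Control library, and the log2 change was -0.52 (SE 0.10, limma adjusted p = 0.0032). Slc25a4 had 124545, 149532, 107404, 98514 and 115605 in dnOGAh-Tg, against 120067, 170257, 126948, 165812 and 148671 in Control. Its groups overlapped widely. The log2 change stood at -0.30 (SE 0.15, limma adjusted p = 0.178), and its 95% interval ran over -0.62 to 0.03. Slc25a5 had 7872, 7598, 5326, 6586 and 6914 in dnOGAh-Tg, against 8493, 9401, 5871, 10278 and 8842 in Control, with overlap as well. Its log2 change was -0.31 (SE 0.15, limma adjusted p = 0.159), with an interval of -0.63 to 0.01. With title code as a block Slc25a5 was called lower (limma adjusted p = 0.0355), and it was lower in dnOGAh-Tg in 5 of 5 pairs of the same code. Both intervals hold 0 and also falls larger than that of Slc25a3, so a fall of that size is within the interval for either ADP/ATP carrier. Slc25a31, the ADP/ATP carrier known from testis, was just inside the value minimum, with 13.2, 6.23, 6.58, 10.8 and 10.1 normalized counts in dnOGAh-Tg and 11.7, 6.11, 10.4, 6.48 and 0 in Control. Processed pseudogenes of Slc25a3, Slc25a4 and Slc25a5 share sequence with them. The sources used here do not say how such reads were counted, so part of these values is uncertain.

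Slc25a34 (ENSMUSG00000040740, chromosome 4, 141346135 to 141351132) had the largest fall among the members. Its values were 2451, 2898, 1845, 1765 and 1599 normalized counts in dnOGAh-Tg, against 4783, 6209, 2681, 4869.7 and 5691 in Control. Control library 3 was far below the other Control libraries and within the dnOGAh-Tg range, and the remaining 4 Control libraries lay above all of dnOGAh-Tg. The log2 change was -1.18 (SE 0.22, limma adjusted p = 0.00204). Its close relative Slc25a35 stood at 0.07 (SE 0.14, adjusted p = 0.743) by limma, Slc25a45 at -0.02 (SE 0.14, adjusted p = 0.921) and Slc25a53 at 0.18 (SE 0.22, adjusted p = 0.598). Slc25a47, a carrier known from liver, had 117, 120.1, 70.5, 103 and 125 in dnOGAh-Tg, against 55.4 to 90.7 in Control, with 4 dnOGAh-Tg libraries above all of Control and library 3 within it. Its log2 change was 0.57 (SE 0.19, limma adjusted p = 0.0529).

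The iron and glutathione carriers held no called member without a block for title code. The glutathione carriers Slc25a40 and Slc25a39 stood at log2 changes of -0.51 (SE 0.18, adjusted p = 0.061) for Slc25a40 and -0.33 (SE 0.15, adjusted p = 0.127) for Slc25a39 by limma, and the iron carrier mitoferrin-2, Slc25a28, at -0.21 (SE 0.15, adjusted p = 0.35). With title code as a block, both glutathione carriers were called lower, Slc25a40 with limma adjusted p = 0.0146 and Slc25a39 with 0.0216, and each was lower in dnOGAh-Tg in all 5 pairs of the same code. Among the uncoupling-protein-like carriers Slc25a14 stood at 0.38 (SE 0.17, adjusted p = 0.125), Slc25a27 at 0.14 (SE 0.17, adjusted p = 0.592) and Slc25a30 at -0.27 (SE 0.17, adjusted p = 0.287). No call was made among the ATP-Mg/phosphate carriers either, where Slc25a23 was at -0.01 (SE 0.08, adjusted p = 0.971), Slc25a24 at -0.07 (SE 0.14, adjusted p = 0.773) and Slc25a25 at 0.07 (SE 0.23, adjusted p = 0.857). Slc25a46, which sits in the outer membrane and acts in mitochondrial dynamics, had -0.09 (SE 0.10, adjusted p = 0.527). Over the 25 members not called, log2 changes ran from -0.51 to 0.74, and 10 of them were within 0.1 of 0. The 0.74 was that of Slc25a31 (SE 0.62, limma adjusted p = 0.422), which has values near the minimum and a Control library at 0.

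**Figure D3:**
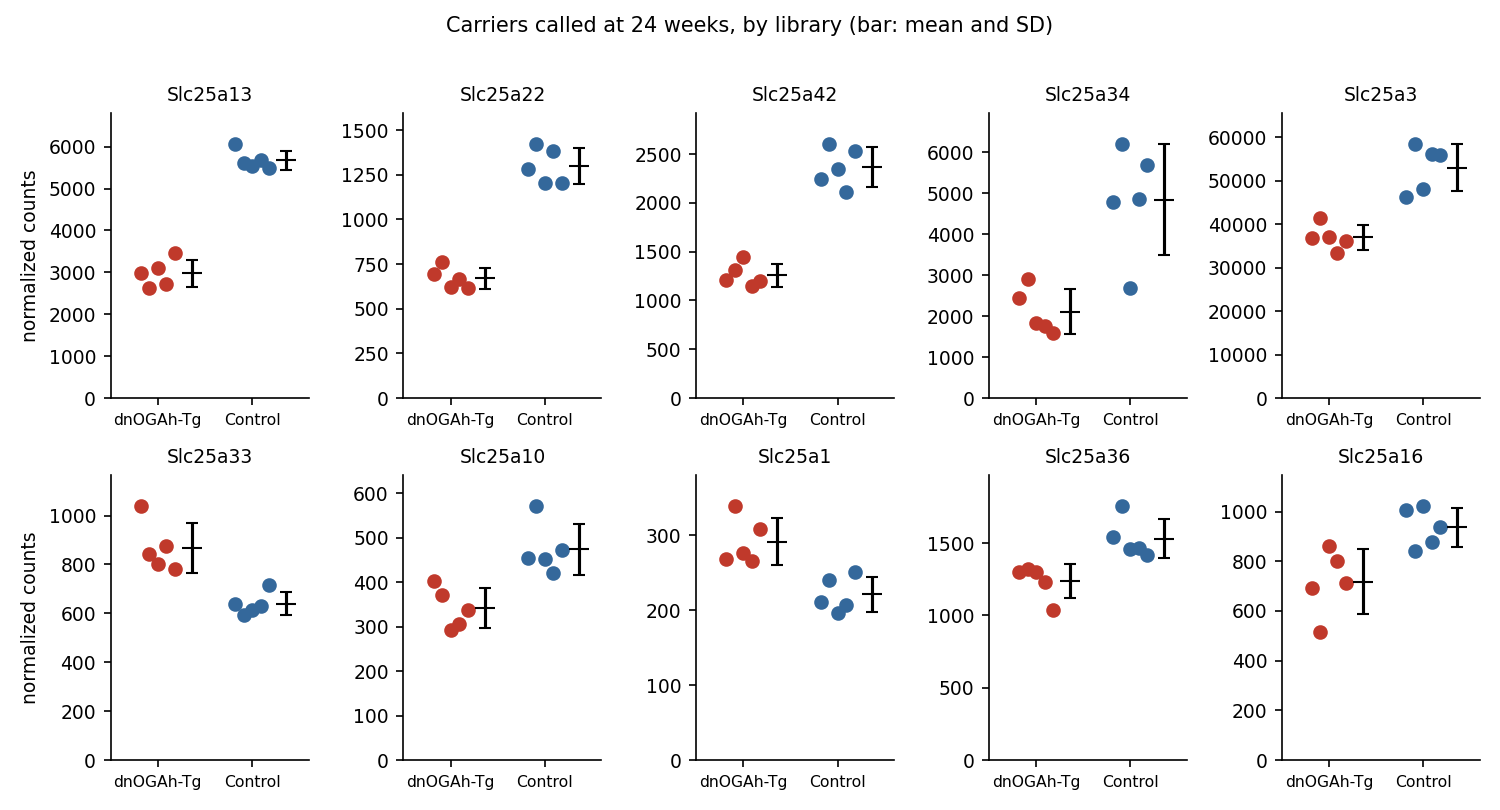
Normalized counts in each library for the 10 members called at 24 weeks, dnOGAh-Tg left and Control right, each panel with its own axis from 0; bars are the mean and SD of 5 libraries. The 2 groups are apart in 8 of the 10 panels, and in those of Slc25a34 and Slc25a16 1 library of a group reaches into the other.

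The calls of Slc25a13, Slc25a22, Slc25a42, Slc25a34, Slc25a3, Slc25a33 and Slc25a10 held in all 20 alternative settings run at 24 weeks. That of Slc25a1 ended in 5 of them, without Control library 1, 3 or 4 or dnOGAh-Tg library 2 or 5 (limma adjusted p from 0.0511 to 0.0587). That of Slc25a36 ended in 5, without Control library 1, 2 or 4 or dnOGAh-Tg library 4 or 5 (limma adjusted p from 0.0517 to 0.0819). That of Slc25a16 ended in 8, with edgeR (adjusted p = 0.051) and without Control library 1, 3, 4 or 5 or dnOGAh-Tg library 1, 2 or 5 (limma adjusted p from 0.0561 to 0.0867).

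The start regions of 5 of the 8 members that fell are shown. Slc25a22, Slc25a10 and Slc25a16 fell as well but are not shown, and none of them was among the members with a match to the motifs below. For 7 of the 35 members no start region was found, and whether Slc25a10 and Slc25a16 were among those 7 is not given here. The windows run from 250 bases before to 50 after the start in RefSeq on GRCm38.p6, in the direction of transcription, and all 5 lie on the minus strand. Capitals mark a match to 1 of 4 motifs searched on both strands. The motifs were the nuclear receptor half-site AAGGTCA, the ATF4-type site TGATGNAA, the cyclic AMP response element TGACGTCA and the palindrome bound by NRF1, GCGCNTGCGC.
Slc25a34, chr4:141623785-141624084: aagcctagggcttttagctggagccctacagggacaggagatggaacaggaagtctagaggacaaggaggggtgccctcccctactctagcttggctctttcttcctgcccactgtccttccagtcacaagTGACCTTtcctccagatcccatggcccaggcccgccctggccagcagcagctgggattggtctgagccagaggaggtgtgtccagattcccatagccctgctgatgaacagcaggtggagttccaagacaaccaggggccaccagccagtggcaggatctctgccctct
Slc25a13, chr6:6217124-6217423: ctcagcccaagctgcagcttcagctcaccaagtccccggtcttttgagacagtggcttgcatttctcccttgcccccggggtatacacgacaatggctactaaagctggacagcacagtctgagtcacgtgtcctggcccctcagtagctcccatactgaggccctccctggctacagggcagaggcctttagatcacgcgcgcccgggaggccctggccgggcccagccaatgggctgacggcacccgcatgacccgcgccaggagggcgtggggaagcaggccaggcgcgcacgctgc
Slc25a42, chr8:70212232-70212531: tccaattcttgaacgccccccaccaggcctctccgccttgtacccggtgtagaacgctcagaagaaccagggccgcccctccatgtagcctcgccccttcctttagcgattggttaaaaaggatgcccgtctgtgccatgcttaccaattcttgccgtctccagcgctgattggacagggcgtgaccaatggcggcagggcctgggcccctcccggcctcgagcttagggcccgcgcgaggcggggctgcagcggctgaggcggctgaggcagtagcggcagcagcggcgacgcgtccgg
Slc25a3, chr10:91123918-91124217: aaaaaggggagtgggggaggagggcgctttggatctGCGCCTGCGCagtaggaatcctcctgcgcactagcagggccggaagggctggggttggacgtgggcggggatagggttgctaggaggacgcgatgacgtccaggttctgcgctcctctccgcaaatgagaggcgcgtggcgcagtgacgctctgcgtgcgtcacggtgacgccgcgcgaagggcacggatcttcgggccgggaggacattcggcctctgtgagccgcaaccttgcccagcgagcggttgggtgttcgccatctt
Slc25a36, chr9:97110992-97111291: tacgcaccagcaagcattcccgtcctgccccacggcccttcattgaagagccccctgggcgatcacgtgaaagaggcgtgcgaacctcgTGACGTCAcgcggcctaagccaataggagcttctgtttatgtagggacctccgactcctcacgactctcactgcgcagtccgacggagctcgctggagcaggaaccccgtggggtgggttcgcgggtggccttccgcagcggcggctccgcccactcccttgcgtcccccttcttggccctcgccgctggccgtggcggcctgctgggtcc

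The window of Slc25a34 holds the half-site on the opposite strand, starting 119 bases before the start, and it was the only one among 37 windows of the 28 members matched to hold it. Of all 32851 windows 4.72% hold these letters. That window has 1 CpG, against 17, 26, 31 and 29 in the windows of Slc25a13, Slc25a42, Slc25a3 and Slc25a36, 6, 10 and 8 in the 3 windows of Slc25a22, a median of 17 over the members' windows and of 7 over all windows. The NRF1 palindrome stood in the windows of Slc25a3 and Slc25a31 (4.60% of all windows), the cyclic AMP response element in those of Slc25a25 and Slc25a36 (1.79%), and the ATF4-type site in no member's window (3.97%). The windows of Slc25a13, Slc25a42 and Slc25a22 held none of the 4. A match describes letters, not a binding site.

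After 2 weeks of induction no member was called over all 10 libraries, and no gene was (0% of 14584 by limma). At an unadjusted p under 0.05 stood 9 of the 34 members (26.5%, against 24.3% of all tested genes). DESeq2 called 850 of the 14584 genes, 607 higher and 243 lower. Of the 34 members it called 1 lower, Slc25a10, and 1 higher, Slc25a26. Within dnOGAh-Tg the libraries with the F11 code, which had the lower Oga, were then set beside the others. In the F13 and F14 libraries Slc25a34, Slc25a13, Slc25a22, Slc25a42, Slc25a10, Slc25a16 and Slc25a40 lay below every Control library and Slc25a26, Slc25a1, Slc25a47, Slc25a23 and Slc25a51 above. For 7 of these 12 members both F11 dnOGAh-Tg libraries lay within the Control range. The 12 were picked by their values in the 3 F13 and F14 libraries, so the F11 libraries would look less extreme by that choice alone. The same count was not made over all genes, and the 7 are not shown to be particular to the carriers. The share of members beyond the Control range in those 3 libraries was near that of all genes, with 20.6% below, against 18%, and 14.7% above, against 15.1%. Over all 5 dnOGAh-Tg libraries no member was separated from Control, against 1.96% of all tested genes lower and 1.19% higher.

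The values at 2 weeks of the members with the largest falls at 24 weeks are given by library. Slc25a34 had 4162, 4448, 2434, 1987 and 1900.1 normalized counts in dnOGAh-Tg libraries 1 to 5, against 4714, 4139, 3809, 3596 and 3757 in Control. Slc25a13 had 5854, 5790.2, 3649.5, 3587 and 2506 in dnOGAh-Tg, against 6043, 4482, 6082, 5799 and 5609 in Control. For both genes dnOGAh-Tg libraries 1 and 2, of code F11, were among the Control values, and libraries 3 to 5 were below all of them.

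Slc25a42 followed the same order, with 2573, 2424, 1634, 1627 and 1219.6 in dnOGAh-Tg, against 2922, 2522, 2739, 2258 and 2360.1 in Control. Slc25a22 had 1299.7, 1339, 903, 803 and 806 in dnOGAh-Tg, against 1590.3, 1629, 1477, 1179 and 1335 in Control. Its F11 dnOGAh-Tg libraries were within the Control range as a whole but below both F11 Control libraries. Slc25a10 had 379, 452, 281, 323 and 289.5 in dnOGAh-Tg, against 483, 588, 421, 480.3 and 442 in Control, where dnOGAh-Tg library 1 was also below every Control library. Slc25a16 had 952, 898, 678, 758 and 513 in dnOGAh-Tg, against 1087, 847, 1069, 989.7 and 883 in Control, and Slc25a40 had 373, 348, 260.3, 243 and 285 in dnOGAh-Tg, against 397, 301, 395, 357 and 363 in Control. In both the F11 dnOGAh-Tg libraries lay among the Control values.

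Without the 4 F11 libraries, 3 dnOGAh-Tg and 3 Control libraries remained. Limma then called 7 members lower and 3 higher (29.4% of the members, against 22.2% of all tested genes; 20.6% lower, against 11.4%, and 8.82% higher, against 10.9%). The log2 change was -0.83 (SE 0.13, adjusted p = 0.00432) for Slc25a34, -0.86 (SE 0.16, adjusted p = 0.00776) for Slc25a13, -0.66 (SE 0.13, adjusted p = 0.0106) for Slc25a22 and -0.72 (SE 0.15, adjusted p = 0.0125) for Slc25a42. It was -0.59 (SE 0.14, adjusted p = 0.0193) for Slc25a10, -0.61 (SE 0.17, adjusted p = 0.0306) for Slc25a16 and -0.50 (SE 0.14, adjusted p = 0.035) for the glutathione carrier Slc25a40. Of the members that were higher, Slc25a29 had 0.55 (SE 0.13, adjusted p = 0.02), Slc25a26 0.65 (SE 0.17, adjusted p = 0.0252) and Slc25a1 0.66 (SE 0.19, adjusted p = 0.0361). The call of Slc25a29 ended where the F11 Control libraries were kept and only the F11 dnOGAh-Tg libraries left out (log2 change 0.37, limma adjusted p = 0.0903). The 24 members not called had log2 changes from -0.35 to 0.67.

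Slc25a26, which brings S-adenosylmethionine, the methyl donor, into the matrix, had 1378, 1764, 1977, 1785 and 1815 normalized counts in dnOGAh-Tg, against 1055, 1267, 1005, 1068 and 1535 in Control. Libraries 2 to 5 of dnOGAh-Tg were above all of Control, and library 1 was below Control library 5. The gene overlaps Lrig1 on the other strand, whose mean at 2 weeks was 1773 in dnOGAh-Tg and 1847 in Control. The sources used here do not say whether counting used strand, so reads of the pair cannot be told apart. Slc25a1 had 179, 182, 281, 280.2 and 357 in dnOGAh-Tg, against 155, 238, 179, 164 and 240.4 in Control, with libraries 3 to 5 of dnOGAh-Tg above every Control library. Slc25a29 had 499, 586, 651, 665 and 712 in dnOGAh-Tg, against 569, 705, 419.9, 487 and 483 in Control. Here the F11 libraries of both groups broke the order, since Control library 2 lay above dnOGAh-Tg libraries 1 to 4. Slc25a29 and Slc25a47 stand head to head on chromosome 12 with 162 bases between them, and both had a log2 change above 0 at either time over all libraries, with no call.

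**Figure D4:**
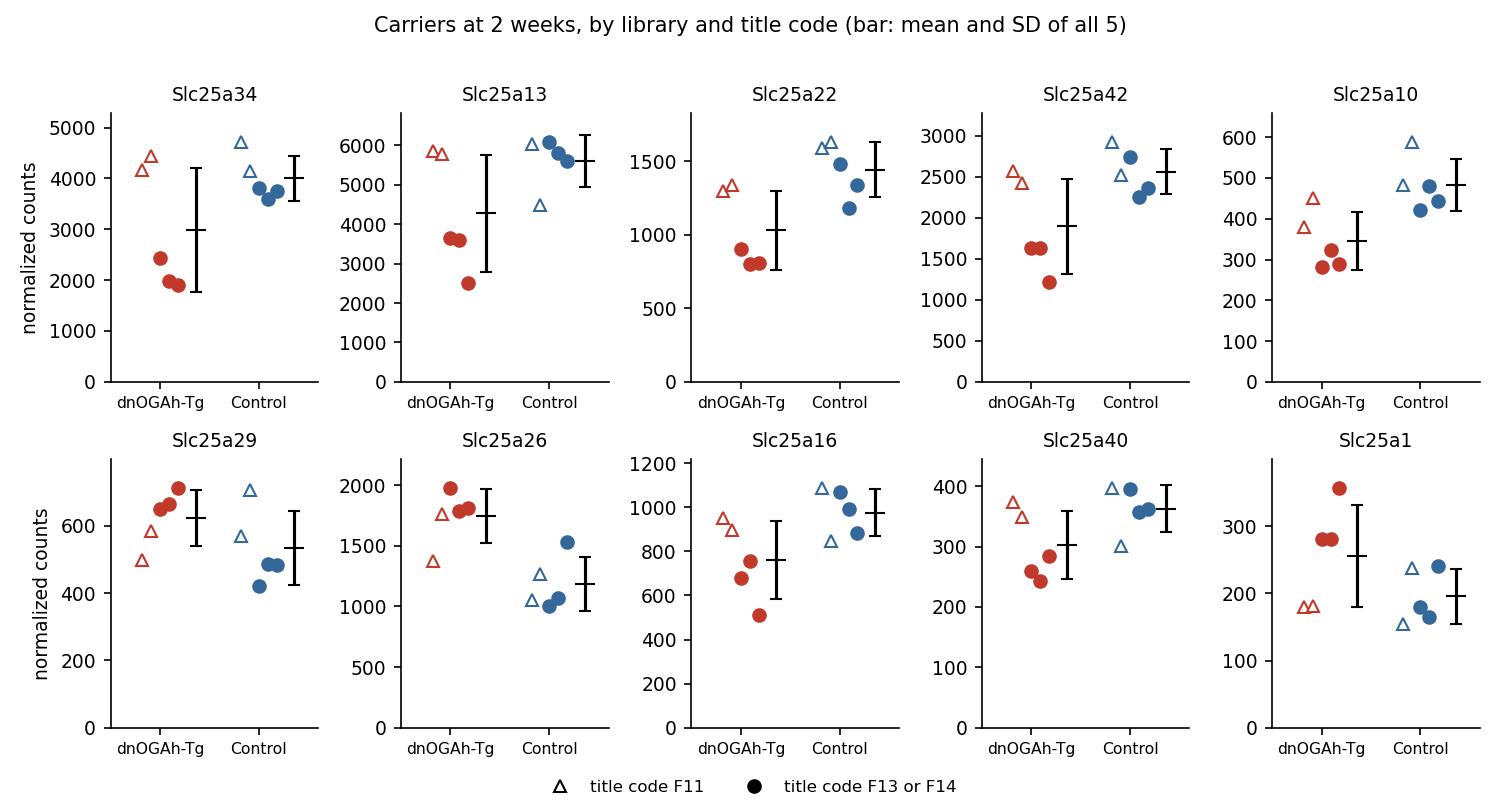
Normalized counts at 2 weeks for the 10 members called without the F11 libraries, dnOGAh-Tg left and Control right, each panel with its own axis from 0; open triangles are F11 libraries, filled circles F13 or F14, and bars the mean and SD of all 5. In the panels of Slc25a34, Slc25a13 and Slc25a42 the 2 open dnOGAh-Tg triangles lie among the Control values and the 3 filled circles below them.

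In the F11 libraries alone, with 2 a group, the log2 changes of these 10 members ran from -0.36 to 0.43, among them -0.04 (SE 0.18) for Slc25a34, 0.16 (SE 0.20) for Slc25a13 and 0.43 (SE 0.20) for Slc25a26. The change in F14 libraries minus that in F11 libraries was tested directly, without the F13 library. For Slc25a34 it was -0.90 (SE 0.19, unadjusted p = 7.22e-04, limma adjusted p = 0.113), and for Slc25a13 -1.12 (SE 0.27, unadjusted p = 0.00186, limma adjusted p = 0.162). No member was called in that test (0.11% of all tested genes were, 0.0343% lower and 0.0754% higher), and 5 of 34 had an unadjusted p under 0.05 (14.7%, against 13.7% of all tested genes). A difference between the codes was thus not shown for any member, and Oga level and code moved together among the dnOGAh-Tg libraries at 2 weeks, so their parts cannot be told apart.

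The members called at 24 weeks and at 2 weeks without the F11 libraries, which share no library, were then set side by side. Slc25a13, Slc25a22, Slc25a42, Slc25a34, Slc25a10 and Slc25a16 were lower in both, and Slc25a1 was higher in both. These 7 were 70% of the 10 called at 24 weeks and 70% of the 10 called at 2 weeks, and no member was called in opposite directions. Over all 14339 genes tested at both times, 1424 were called in the same direction, 44.7% of those called at 24 weeks and 44.2% of those called at 2 weeks, and 9 in opposite directions. Whether the members' share differs from that was not tested. Slc25a3, Slc25a36 and Slc25a33 were called at 24 weeks alone, and Slc25a40, Slc25a29 and Slc25a26 at 2 weeks alone.

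**Figure D5:**
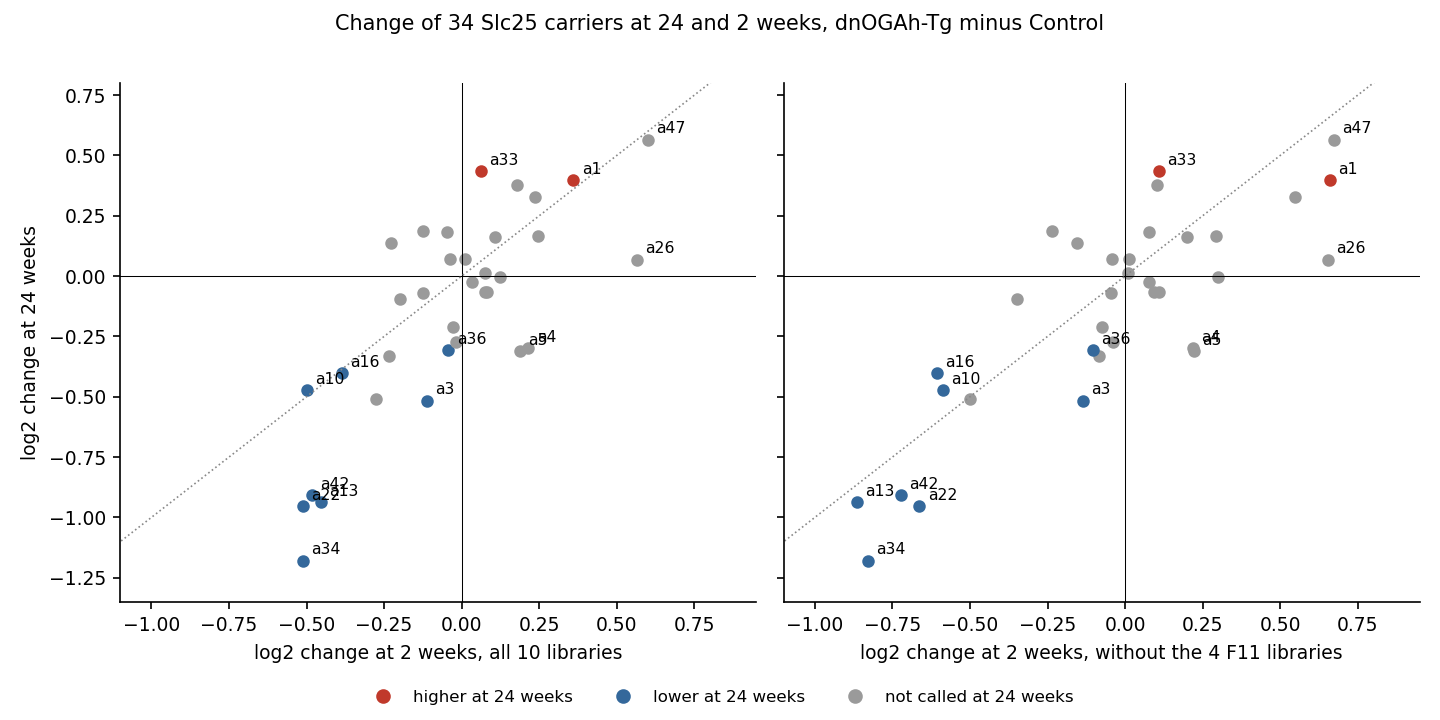
Log2 change at 24 weeks (vertical axis) against that at 2 weeks (horizontal axis) for the 34 members of both times, with all 10 libraries of 2 weeks in the left panel and without the 4 F11 libraries in the right; the dotted line marks equal change and colours give the 24-week call. Slc25a34, Slc25a13, Slc25a22 and Slc25a42 lie at the lower left in both panels, while Slc25a4 and Slc25a5 lie right of 0 and below it.

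Whether the change differed between times was tested over all 20 libraries. No member was called, against 1.76% of the 14339 genes tested at both times (0.683% lower and 1.07% higher), and 6 of 34 had an unadjusted p under 0.05 (17.6%, against 15.4%). Slc25a3 had 47636, 54833, 49021, 43846 and 44968 normalized counts in dnOGAh-Tg at 2 weeks, against 54622, 52884, 46108, 47936 and 58093 in Control, and dnOGAh-Tg libraries 4 and 5 lay below all of Control while the others lay within it. Its change at 24 weeks minus that at 2 weeks was -0.41 (SE 0.14, unadjusted p = 0.00952, limma adjusted p = 0.157), and DESeq2 called this member alone. Slc25a4 had 131190.0, 170261, 167977, 144627 and 183746 in dnOGAh-Tg at 2 weeks, against 124468, 134431, 116629, 124783 and 194324 in Control, and a difference between times of -0.51 (SE 0.22, unadjusted p = 0.0312, limma adjusted p = 0.266). Slc25a5 had 6504, 8226, 7129, 6460.2 and 7969.7 in dnOGAh-Tg at 2 weeks, against 6232, 7080.0, 5103, 6105 and 7431 in Control, and a difference of -0.50 (SE 0.20, unadjusted p = 0.0201, limma adjusted p = 0.218). For Slc25a26, which had the higher values at 2 weeks, the difference was -0.50 (SE 0.18, unadjusted p = 0.0109, limma adjusted p = 0.167), and it was called without Control library 5 of 2 weeks. A change at 24 weeks alone was therefore not shown for any carrier. The cardiomyocyte marker sum at 2 weeks was 1568560 to 1843950 in dnOGAh-Tg and 1792700 to 1971240 in Control, and its part in these differences was not tested.

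The carriers left out by name and other genes of mitochondrial transport were counted beside the members. At 24 weeks 3 of 9 relatives were lower (33.3%, against 11.1% of all tested genes) and 1 was higher (11.1%, against 11.3%). Ucp3, an uncoupling protein of the same family, had 256, 383, 245, 358 and 245 normalized counts in dnOGAh-Tg, against 1108, 1328, 1127, 784 and 2317 in Control, with no overlap. Its log2 change was -2.09 (SE 0.24, limma adjusted p = 7.50e-05). The oxoglutarate carrier Slc25a11 stood at -0.56 (SE 0.11, adjusted p = 0.00215) by limma, and the carnitine/acylcarnitine carrier Slc25a20 at -0.55 (SE 0.10, adjusted p = 0.00164). Mtch1, an outer membrane relative, had 0.43 (SE 0.10, adjusted p = 0.00837) and was the one that rose. At 2 weeks without the F11 libraries 2 of the 9 were lower (22.2%, against 11.4% of all tested genes) and 1 was higher (11.1%, against 10.9%). Slc25a12, the aspartate/glutamate carrier that is abundant in heart, had -0.23 at 24 weeks (SE 0.09, limma unadjusted p = 0.0238, adjusted p = 0.0853). Its values were 5981, 5359, 7108, 6302 and 6250 normalized counts in dnOGAh-Tg, against 6833, 7090, 8012, 7006 and 7206 in Control. It was lower in dnOGAh-Tg in every pair of the same code, and its fit with a code block is not given here. Without that block, Slc25a13 alone of the 2 aspartate/glutamate carriers was called. The difference between those 2 genes was not tested.

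Of 21 other mitochondrial transporters 4 were lower (19.0%, against 11.1% of all tested genes) and none was higher (against 11.3%) at 24 weeks. They were Abcb8, a transporter of the inner membrane, with -0.83 (SE 0.09, adjusted p = 3.57e-05) by limma, Abcb10 with -0.44 (SE 0.08, adjusted p = 0.00156), cyclophilin D, Ppif, a regulator of the permeability transition, with -0.67 (SE 0.13, adjusted p = 0.00219), and the pyruvate carrier subunit Mpc2 with -0.54 (SE 0.15, adjusted p = 0.022). Machinery on the import route of carriers, among it Tomm70a, Timm9, Timm10 and Timm22, was counted as 13 genes. The list also holds Tomm20, Tomm22, Tomm40, Timm8a1, Timm8b and Timm13, which do not serve carriers alone. At 24 weeks limma called none of the 13, against 22.5% of all tested genes. At an unadjusted p under 0.05 stood 1 of the 13, against 34.9% of all tested genes, and their median log2 change was 0.03. At 2 weeks without the F11 libraries 4 of these 13 were higher (30.8%, against 10.9% of all tested genes). None was lower (against 11.4%), and the median was 0.50. The difference between times was called for none of the 13, against 1.76% of all genes tested at both times.

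Below the value minimum at both times were Slc25a2, Slc25a18, Slc25a41 and Slc25a43, joined by Slc25a21 at 24 weeks and Slc25a31 at 2 weeks. Just outside it at 24 weeks, Slc25a41, a short ATP-Mg/phosphate carrier, had 14.3, 8.01, 9.39, 8.74 and 9.06 normalized counts in dnOGAh-Tg, against 1.07, 2.04, 4.16, 0 and 5.06 in Control. All 5 dnOGAh-Tg libraries were above all of Control, and limma called it higher where no minimum was applied. At 2 weeks it had 3.96, 3.01, 8.40, 18.5 and 13.7 in dnOGAh-Tg, against 3.74, 1.26, 1.10, 0.908 and 4.14 in Control. Slc25a2, an ornithine carrier, had 5.66, 8.03, 23.3, 10.7 and 30.8 in dnOGAh-Tg, against 0, 3.78, 4.40, 0.908 and 8.29 in Control at 2 weeks. These values correspond to few reads, and neither gene was among the members.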

How the data were processed

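Left ventricle RNA was sequenced in 20 libraries, 5 per group. The submitters' processing notes list the aligner STAR 2.7.3a, the build GRCm39, the trimmers cutadapt 2.6 and Trim Galore 0.6.6, and DESeq2 under R 4.0.3. The sources used here do not give the read counter, annotation release or strand. The authors deposited 1 table per time with a normalized signal per gene, namely read counts divided by a size factor per library. Dividing each library by its smallest step gave whole reads, within 0.01 of a read, for 100% of its values above 0, and these reads entered the count tests.

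Genes that reached 10 in 5 or more of the 10 libraries of a time were tested on log2(value + 1) by limma-trend, two-sided (R 4.3.3 with limma 3.58.1). P-values were adjusted by Benjamini and Hochberg over every gene in the fit, and 0.05 was the threshold. Fold changes are on this scale, which can understate those of low genes, or overstate them where a library is at 0. The difference between times was a contrast in 1 fit of the 4 groups. edgeR 4.0.16 and DESeq2 1.42.0 on recovered reads, other pseudocounts, filters and scalings, a replicate or title code block, and leaving out libraries were alternatives. The fit of F11 libraries alone and the contrast between F14 and F11 libraries were added after seeing the data. The scripts were tested on simulated data.

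Members, groups of carriers, related genes, markers and tests were chosen with earlier results of these data known. Every member could be named, those called with all values; the text does not count Slc25a11, Slc25a12, Slc25a20, Slc25a37 and Slc25a44 as members. The values of 1 member are not reported here. Exon lengths are merged exons of GENCODE M21 joined by gene ID, which include rarely used exons. Promoter windows are RefSeq's on GRCm38.p6 and were matched by symbol for 28 of 35 members. Gene coordinates are those of the deposited tables. The labels do not say what a number or title code stands for, so neither block is part of the test given first. At 24 weeks the library number and the code name the same pairs, so both blocks are 1 fit. Same-numbered libraries did not all deviate together (correlation of same-numbered deviations from the group means from -0.15 to 0.52 at 24 weeks and from -0.21 to 0.38 at 2 weeks).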

Additional observations from a re-analysis of the deposited data

Results flagged for a closer look

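In 3 of the 138 sets of 5 libraries (2.17%) formed by a member, a group and a time, 1 library stood apart from the other 4, and chance alone gives about 1 in 20. Slc25a46 had 2844 normalized counts in Control library 3 at 24 weeks, against 2307 to 2427 in the other Control libraries. Slc25a4 had 194324 in Control library 5 at 2 weeks, against 116629 to 134431 in the others. Slc25a23 had 1792 in dnOGAh-Tg library 1 at 2 weeks, an F11 library, against 2247 to 2346 in the other dnOGAh-Tg libraries.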

How the results depend on the processing

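At 24 weeks the counts of all genes and of lower members stayed within 1.5 times their values under every alternative run, with 2524 to 3183 genes, 6 to 9 members lower and 1 to 3 higher when a single library was left out. The lowest and highest counts of higher members came without Control library 1, 3 or dnOGAh-Tg library 2 or 5, and without Control library 4 or dnOGAh-Tg library 3. DESeq2 called 4 members higher. Slc25a5 was called lower without Control library 3 (limma adjusted p = 0.0193), Slc25a4 after quantile scaling (0.0437), Slc25a40 with DESeq2 and without Control library 2 or dnOGAh-Tg library 4, and Slc25a39 without Control library 3 or dnOGAh-Tg library 2. Slc25a47 was called higher with TMM, edgeR and DESeq2 and without Control library 4 or dnOGAh-Tg library 3, Slc25a32 with DESeq2, and Slc25a29 without Control library 4.

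At 2 weeks the main count of 0 genes became 850 with DESeq2, 3241 without the F11 libraries, 4929 without the F11 dnOGAh-Tg libraries, 1126 in F14 libraries alone and 20 in F11 libraries alone, while edgeR called 0. Leaving out single libraries gave 0 to 3366 genes, 0 to 6 members lower and 0 to 2 higher, with 3366 genes without dnOGAh-Tg library 1 and 447 without Control library 5. Members lower numbered 1 with DESeq2, 7 without the F11 or the F11 dnOGAh-Tg libraries and 4 in F14 libraries alone. Members higher numbered 1 with DESeq2, 3 without the F11 libraries, 4 without the F11 dnOGAh-Tg libraries and 0 in F14 libraries alone. In the F11 libraries alone, with 2 a group, the log2 change had the other sign for 4 members, none of them called. They were Slc25a1 (-0.089, SE 0.27), Slc25a13 (0.16, SE 0.20), Slc25a29 (-0.23, SE 0.21) and Slc25a40 (0.061, SE 0.23). The causes were not tested.

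The difference between times was called for 531 genes and 1 member (Slc25a3) with DESeq2, for 34 genes without the F11 libraries, and for 100 to 683 genes and 0 to 1 member (Slc25a26, without Control library 5 of 2 weeks) leaving out single libraries, against 252 genes and 0 members. With the replicate block, at 24 weeks the same fit as the title code block, 3921 genes, 11 members lower (Slc25a5, Slc25a39 and Slc25a40 in addition) and 2 higher were called, 241 genes and 0 members at 2 weeks, and 422 genes for the difference between times. With title code as a block 0 genes were called at 2 weeks and 232 for the difference. Counts near the value minimum rest on few reads, which limits Slc25a31, Slc25a41 and Slc25a2.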
